A study of Mus musculus with 15 samples.

Results

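The E2 clone, 1 of 4 clonal populations grown from single cells of the mouse mammary carcinoma line 4T1, was compared with the parental 4T1 population across all measured genes. Its members are the 3 E2 and the 3 parental libraries, chosen by their labels, which makes 6 of the 15 RNA sequencing libraries of the study. The other 9 libraries are 3 each of the clones E1, A and M. The study describes how clones derived from one tumour cell line differ in gene expression. Parental cells carry the genotype WT in the labels. E2 cells express iRFP670, a near-infrared fluorescent protein, after transfection of the plasmid pNLS-iRFP670 and outgrowth of 1 transfected cell. Every population was grown in RPMI-1640 with fetal bovine serum and gentamicin. The clones were also kept in G418, which was withdrawn ahead of RNA collection, and the cultures had stood for 72 h and were about 80% confluent when RNA was taken. E2 is a single clone, so what belongs to it and what transfection, selection or passage through 1 cell did cannot be told apart.

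4T1 cells come from a mammary tumour of the mouse and are used as a transplantable model of metastatic breast cancer. A tumour cell line is a mixture of related cells, and a clone carries forward the state of the cell that founded it. Epithelial cells hold together through tight junctions and desmosomes, anchor to laminin through hemidesmosomes, and build sterols and fatty acids for their membranes. The endoplasmic reticulum folds their secreted and membrane proteins with the help of chaperones, whose genes are switched on by the unfolded protein response.

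The 3 E2 libraries held 20494390, 27606626 and 30002009 counts and the 3 parental libraries 25427438, 27753052 and 31598326. Much of this fell on the 6 identifiers with the most counts. All other identifiers shared 6164768, 10030846 and 11419324 counts in the E2 and 7096885, 9114250 and 11120148 in the parental libraries. The number of genes with any count ran from 13511 to 13946 per library. The identifier with the most counts took 49.3% of parental replicate 1 and 49.1% of E2 replicate 1 against 38.3% to 40.0% in the other 4, and list counts that moved by over 1.5 times without both are given that way as well. The labelled cell type was checked against epithelial markers: Epcam, Cdh1, Krt7, Krt8, Krt18, Krt19, Cldn3, Cldn4 and Cldn7 were all detected in each of the 6 libraries. Ptprc of leukocytes, Col3a1 and Dcn of fibroblasts, Kdr of endothelium, Adipoq of fat cells, and Krt5, Krt15, Krt17 and Trp63 of basal mammary cells had 0 counts in all 6. The basal and myoepithelial list was not silent as a whole. Of its 20 genes 5 had 0 counts throughout and 12, Krt14 among them, had enough counts to be tested. Their summed level was 346 to 450 CPM in the parental and 409 to 648 CPM in the E2 libraries. Of 20 leukocyte markers 13 had 0 counts throughout. The 1 tested was at 0.153 to 0.975 CPM in the parental and 0.140 to 0.572 CPM in the E2 libraries. The fibroblast and endothelial lists were not silent as a whole either. Of 12 fibroblast markers 7 had 0 counts throughout. The 1 tested was at 6.77 to 7.43 CPM in the parental and 3.59 to 9.45 CPM in the E2 libraries. Of 12 endothelial markers 4 had 0 counts throughout. The 2 tested summed to 6.05 to 7.89 CPM in the parental and 3.53 to 5.78 CPM in the E2 libraries.

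Values below are CPM, a gene's counts scaled to the library's total and its TMM factor, and libraries are given in the order of their replicate numbers. A gene was called higher or lower at a Benjamini-Hochberg adjusted p under 0.05 in edgeR's quasi-likelihood test, which is the source of every adjusted p here. SE is the standard error of the log2 fold change from the spread of the 3 libraries on each side. Of 12712 genes tested, 2281 were called in E2 against the parental population, 1162 of them higher and 1119 lower. This is 17.9% of the tested genes (9.14% higher and 8.8% lower), and it is the background for every count of called genes below. The median log2 fold change over all tested genes was 0.0109. Of the called genes 893 (7.02% of those tested) differed at least 2-fold, 513 higher (4.04%) and 380 lower (2.99%), while 1388 differed by less. Past 4-fold there were 118 higher and 111 lower. The 3 libraries of one population all lay above the 3 of the other for 4145 genes, 32.6% of those tested. Without E2 replicate 1 and parental replicate 1 together, 1451 genes were called.

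**Figure D1:**
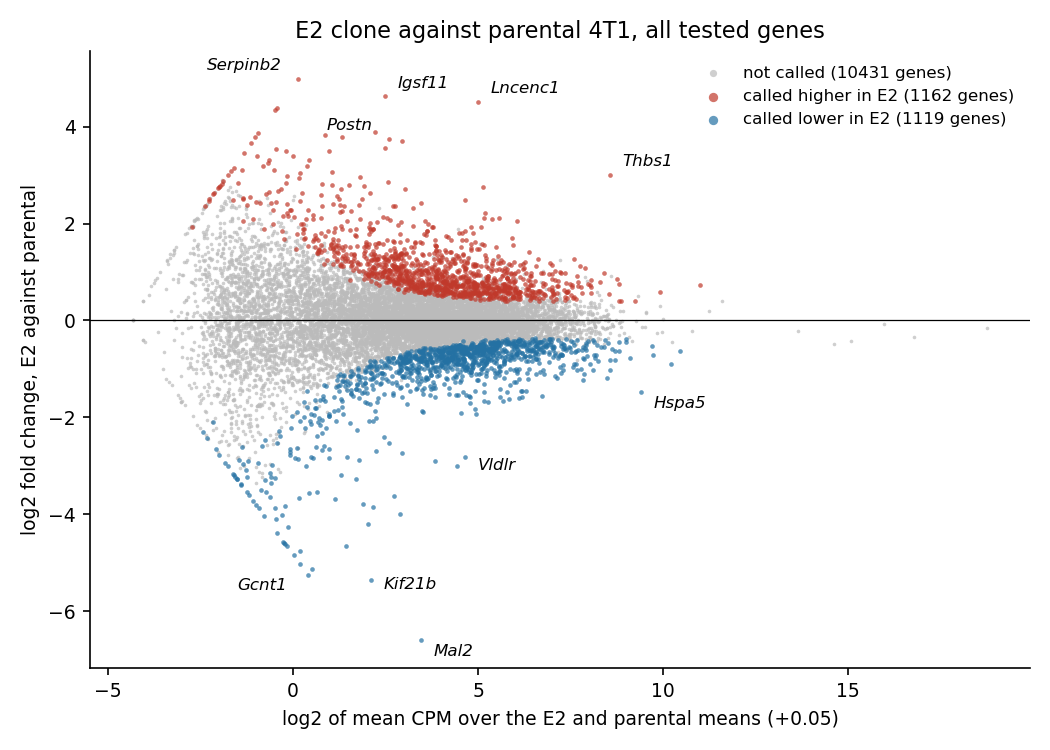
Each point is 1 of 12712 tested genes, with the log2 mean expression of the E2 and parental populations on the horizontal axis and the log2 fold change of E2 against parental on the vertical axis. The 1162 genes called higher are red, the 1119 called lower are blue, and genes not called are grey. The calls reach lower fold changes as expression rises, and Mal2 and Serpinb2 lie at the ends.

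The genes with the largest rises included secreted proteins, enzymes and receptors. Thbs1, a matrix glycoprotein that activates latent TGF-beta (identifier 21825, chromosome 2, 118111876 to 118127133 in GRCm38), stood at 72.9, 80.7 and 95.8 CPM in the parental libraries and at 693, 604 and 712 CPM in E2. Every E2 library was above every parental one, with a log2 fold change of 3.01 (SE 0.136, adjusted p = 6.98e-10). Gatm, the first enzyme of creatine synthesis, stood at 0.928, 1.26 and 0.913 CPM in the parental and 14.2, 14.97 and 13.8 CPM in the E2 libraries (log2 fold change 3.70, SE 0.147). Postn, periostin, a matrix protein of the tumour stroma (identifier 50706, chromosome 3, 54359267 to 54391041 in GRCm38), was at 0.928, 0.115 and 1.26 CPM in the parental libraries. In E2 it reached 13.6, 11.5 and 8.78 CPM (3.75, SE 0.909, adjusted p = 2.23e-05). The lowest parental library was replicate 2. Nrp1, a coreceptor for semaphorins and VEGF, rose from 7.47, 4.55 and 10.52 to 36.3, 44.4 and 46.5 CPM, and Rab32, a small GTPase of lysosome-related organelles, rose from 1.58, 0.153 and 1.64 to 6.50, 8.38 and 6.93 CPM. Entpd3, an enzyme that hydrolyses extracellular nucleotides, was at 0.696, 0.765 and 1.57 CPM and rose to 7.91, 6.04 and 4.56 CPM. In each of these genes the E2 and parental libraries did not overlap, as the rule for naming the largest changes required.

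The genes with the largest falls included transport, trafficking and signalling proteins. Vldlr, a lipoprotein receptor, stood at 37.04, 54.6 and 40.5 CPM in the parental libraries and at 10.04, 5.83 and 2.98 CPM in E2 (-2.82, SE 0.528, adjusted p = 9.56e-05). Aldh1l2, a folate enzyme of mitochondria, fell from 26.8, 21.6 and 26.3 to 4.37, 2.51 and 3.01 CPM. Myo5c, an unconventional myosin of secretory granules in epithelium, was 16.7, 12.2 and 12.9 CPM and then 0.624, 0.663 and 1.09 CPM. All 3 genes fell in each E2 library, with no overlap, which the rule for naming them required. Hhip, which binds and restrains hedgehog ligands, had 27.6, 49.4 and 36.99 CPM in the parental libraries and 1.35, 6.63 and 5.74 CPM in E2. Tgfbr3, the TGF-beta coreceptor betaglycan, fell from 6.96, 6.96 and 4.16 to 0.416, 0.698 and 1.09 CPM (-2.88, SE 0.439). Txnip, an inhibitor of thioredoxin and of glucose uptake, fell from 19.03, 9.41 and 11.6 to 0.416, 2.72 and 2.43 CPM, and E2 replicate 1 was the lowest. Among genes above 100 CPM, Nt5e, the ectonucleotidase CD73, fell from 96.5, 93.7 and 121 to 30.96, 40.1 and 42.6 CPM, and Erlin1, a protein of the endoplasmic reticulum that takes part in sterol control, from 101, 119 and 106 to 39.1, 36.6 and 33.8 CPM. The fall of Kif21b, a kinesin, from 7.94, 8.38 and 8.91 to 0, 0 and 0.365 CPM was called (-5.37, adjusted p = 0.00997), and the call was lost without E2 replicate 1 and parental replicate 1 together (adjusted p = 0.0767).

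**Figure D2:**
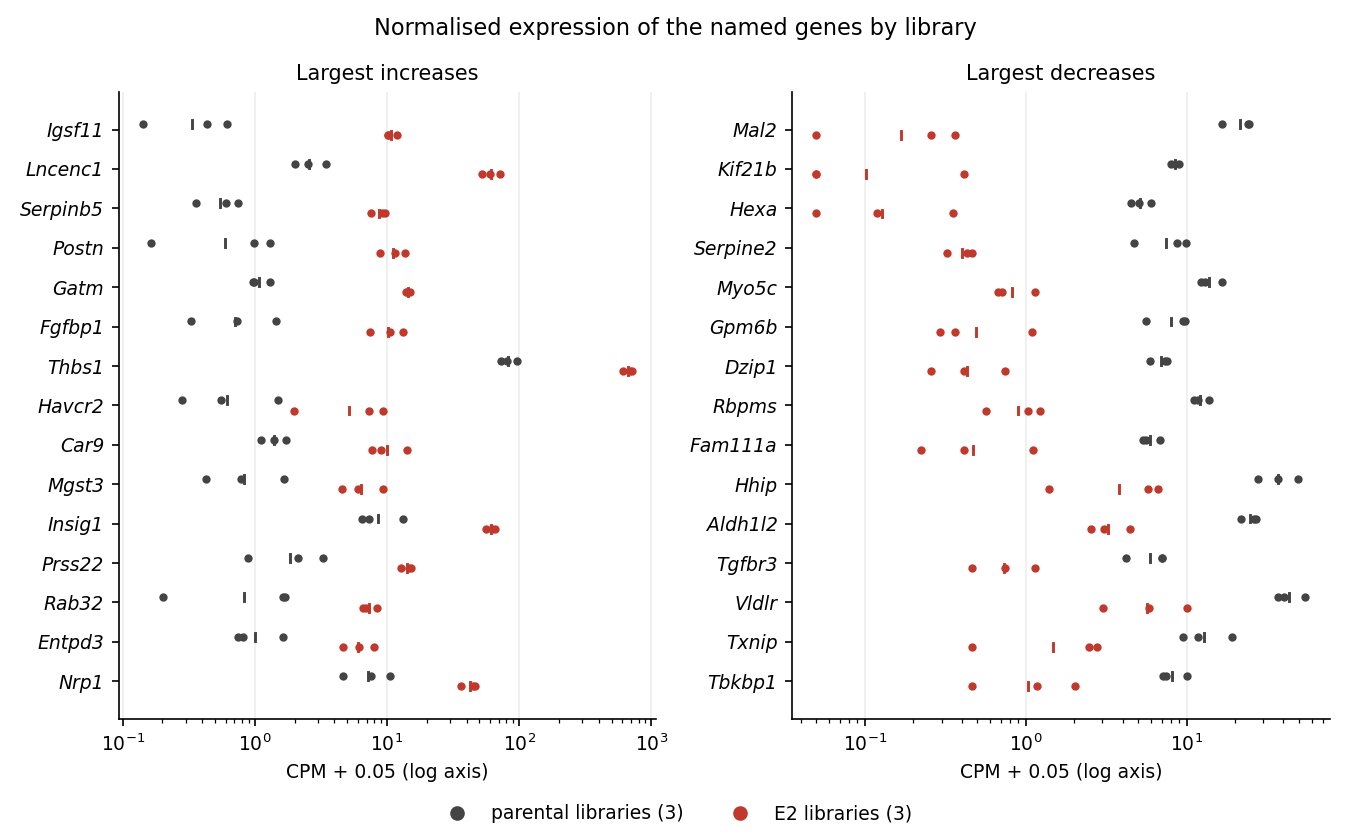
Expression in each of the 3 parental (grey) and 3 E2 (red) libraries of the 15 genes with the largest rise (left) and the 15 with the largest fall (right), as CPM plus 0.05 on a log axis, with a short bar at the geometric mean. Only genes in which the 3 libraries of one population lie clear of the 3 of the other could be chosen.

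Some called genes were silent in one population, and their folds are lower bounds set by a floor of 3 counts over the 3 libraries. Serpinb2, the plasminogen activator inhibitor PAI-2, had 0 counts in the parental libraries and 178 in E2, at least 58.3-fold higher. Sema3d, a secreted guidance ligand, was at least 33.4-fold higher in E2, and Hey2, a transcriptional target of Notch, at least 25.2-fold. In the other direction Satb1, an organizer of chromatin, was at least 70.5-fold higher in the parental libraries, Elovl4, an elongase of very long fatty acids, at least 60.7-fold and Dmd, dystrophin, at least 49.1-fold. Wnt10b, a Wnt ligand of the mammary gland, was at least 47.1-fold higher there, and Itgb3, the integrin beta-3 subunit, at least 21.4-fold. Gcnt1, an enzyme that branches mucin-type glycans, had 1 count in E2 and 223 in the parental libraries, a ratio of 227 with a counting interval from 40.3 to 8996. Satb1, Elovl4 and Dmd were chosen after their values were seen, by the size of the bound.

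Most cholesterol synthesis genes rose. All 21 listed enzymes were tested, 13 were called higher and 0 lower, and the median log2 fold change was 1.02 against 0.0109 over all genes. Cyp51, which removes a methyl group from lanosterol (identifier 13121, chromosome 5, 4080674 to 4104697 in GRCm38), stood at 12.1, 13.6 and 13.03 CPM in the parental and at 46.6, 48.8 and 40.7 CPM in the E2 libraries, with a log2 fold change of 1.81 (SE 0.0925, adjusted p = 0.000221). Idi1, which makes the second isoprenoid unit, rose from 2.83, 4.36 and 3.81 to 8.95, 10.6 and 9.66 CPM (1.39, SE 0.194). Early and late steps thus both held called genes. Sqle, the squalene epoxidase, was not called (log2 fold change 0.38), nor were Fdft1 (0.49), Msmo1 (0.14) and Sc5d (0.13). Without E2 replicate 1 and parental replicate 1 together, 8 were called higher, and the median was 1.03.

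The regulators and outlets of the sterol pathway moved in both directions. Of 19 tested genes 7 were called higher and 2 lower. Insig1, which retains the sterol-sensing complex in the endoplasmic reticulum and is itself a target of SREBP, was at 6.41, 13.2 and 7.27 CPM in the parental and 56.04, 65.6 and 62.1 CPM in the E2 libraries. Stard4, a sterol transfer protein, rose from 4.08, 6.47 and 5.32 to 18.7, 18.7 and 19.9 CPM (1.84, adjusted p = 9.82e-06). The genes of both SREBP factors were called higher: Srebf1 rose from 14.7, 14.7 and 13.9 to 38.3, 21.9 and 29.4 CPM, and Srebf2 from 31.4, 31.8 and 27.3 to 62.8, 39.4 and 59.6 CPM, where the call was lost in 6 alternatives (adjusted p up to 0.231). Lrp8, a lipoprotein receptor, rose from 18.1, 20.5 and 17.1 to 42.6, 42.2 and 40.8 CPM. Its relative Vldlr fell, as given above, and Abcg1, a sterol exporter, had 74 counts in the parental libraries and 0 in E2, at least 25.1-fold lower. Without E2 replicate 1 and parental replicate 1 together, 4 of the 19 were called higher. Fatty acid genes had 8 of 21 called higher and 0 lower, with a median of 0.45. Fads3, a desaturase-like gene, rose from 27.5, 31.6 and 29.2 to 75.5, 73.6 and 52.2 CPM, and Acsl4, which activates arachidonic acid, from 115, 172 and 133 to 176, 340.1 and 276 CPM. The 8 calls were 5 without E2 replicate 3, and 2 without E2 replicate 1 and parental replicate 1 together.

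Endoplasmic reticulum chaperones and components of the unfolded protein response fell: 15 of 29 tested genes were called lower and 0 higher, with a median log2 fold change of -0.58. The promoters of 5 called members are printed because they carry the endoplasmic reticulum stress element, the sequence through which this response switches on chaperone genes. They are the 250 bases before the start of each gene, from RefSeq (GRCm38.p6), 5′ to 3′ on the gene's strand, with the element in capitals: Hspa5 at chr2:34771840-34772089 (+), Calr at chr8:84846932-84847181 (-), Canx at chr11:50325674-50325923 (-), Pdia6 at chr12:17266339-17266588 (+) and Dnajc3 at chr14:118937682-118937931 (+).
Hspa5: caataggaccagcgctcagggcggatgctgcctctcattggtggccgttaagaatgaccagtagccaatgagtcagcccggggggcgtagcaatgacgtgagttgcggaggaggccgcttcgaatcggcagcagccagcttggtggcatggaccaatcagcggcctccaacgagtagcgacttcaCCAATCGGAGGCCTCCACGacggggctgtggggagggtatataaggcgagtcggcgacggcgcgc
Calr: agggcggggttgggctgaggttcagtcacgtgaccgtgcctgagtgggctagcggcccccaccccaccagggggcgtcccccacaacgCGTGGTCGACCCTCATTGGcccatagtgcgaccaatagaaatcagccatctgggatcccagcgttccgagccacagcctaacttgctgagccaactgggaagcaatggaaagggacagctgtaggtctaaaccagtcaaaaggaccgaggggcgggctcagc
Canx: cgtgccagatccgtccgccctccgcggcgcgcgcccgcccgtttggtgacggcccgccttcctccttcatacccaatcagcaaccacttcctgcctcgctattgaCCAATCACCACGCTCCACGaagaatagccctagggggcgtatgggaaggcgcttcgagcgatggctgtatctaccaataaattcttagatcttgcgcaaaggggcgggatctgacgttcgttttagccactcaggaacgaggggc
Pdia6: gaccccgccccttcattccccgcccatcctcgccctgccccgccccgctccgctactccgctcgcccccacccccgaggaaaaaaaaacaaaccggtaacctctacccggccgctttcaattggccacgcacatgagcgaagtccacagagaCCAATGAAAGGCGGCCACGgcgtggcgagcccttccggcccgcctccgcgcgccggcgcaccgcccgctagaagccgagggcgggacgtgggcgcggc
Dnajc3: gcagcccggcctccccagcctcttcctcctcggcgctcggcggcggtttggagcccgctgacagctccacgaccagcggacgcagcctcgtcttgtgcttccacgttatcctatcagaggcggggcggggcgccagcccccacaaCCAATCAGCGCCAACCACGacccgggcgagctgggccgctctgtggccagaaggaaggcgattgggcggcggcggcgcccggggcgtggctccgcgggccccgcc
The element was searched on both strands as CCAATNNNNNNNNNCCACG in the window from 250 bases before to 50 after each start. It was present in 8 of the 25 listed genes with a promoter in the table (32.0%), in 16 of 9704 tested genes (0.165%) and in 37 of all 27025 promoters (0.137%). Of the 8 carriers the 5 printed were called lower (Pdia6 lost its call in 2 alternatives, adjusted p up to 0.139), while Hsp90b1 (-0.14), Creld2 (-0.22) and Syvn1 (-0.14) were not called. A match is a description of these letters and not a bound site.

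Hspa5, the main chaperone of the compartment, stood at 1087, 923 and 943 CPM in the parental and at 412, 334 and 318 CPM in the E2 libraries (-1.47, SE 0.137, adjusted p = 6.56e-08). Calr, calreticulin, fell from 38.9, 33.9 and 29.7 to 16.1, 18.1 and 17.5 CPM, and its membrane-bound partner Canx from 460.2, 547 and 499 to 297, 348 and 334 CPM. Both chaperones bind glycoproteins as they fold, and neither overlapped between the populations. Manf, a secreted protein that binds Hspa5, fell from 30.1, 22.3 and 19.3 to 9.89, 8.31 and 10.6 CPM, and Hyou1, the nucleotide exchange factor of Hspa5, from 130.1, 133 and 112 to 68.3, 71.7 and 74.4 CPM. The sensor gene Ern1 fell from 54.8, 33.3 and 44.5 to 20.6, 16.9 and 23.97 CPM, and Xbp1, whose transcript Ern1 splices, from 29.2, 37.2 and 34.9 to 11.1, 22.1 and 18.2 CPM. The other sensors were not called: Atf6 had a log2 fold change of -0.36 and Eif2ak3 of -0.11. Dnajc3, a cochaperone of Hspa5, lies on chromosome 14 and fell by 1.02 on the log2 scale. Selenok, a selenoprotein of the same compartment and chromosome, fell by 1.45, and outside that chromosome 13 of 27 tested members were called lower. The integrated stress response downstream of Eif2ak3 had 3 of 37 tested targets called higher and 4 lower, with a median of -0.04 (-0.12 to 0.01 with a library left out). These calls make 18.9% of the list, near the 17.9% of all tested genes, so the list as a whole did not stand out. Gars, a tRNA synthetase, rose from 191, 199 and 194 to 332, 327 and 310.2 CPM, and Cth, which makes cysteine, fell from 43.6, 50.9 and 59.4 to 20.9, 26.3 and 21.97 CPM. The 4 lower calls of that list were 7 without E2 replicate 1.

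Epithelial genes held more calls upward than downward. Of 33 tested, 11 were called higher and 2 lower, and 24 had a value above 0, with a median log2 fold change of 0.44. Esrp1, a splicing factor of epithelial cells, stood at 26.6, 28.6 and 29.9 CPM in the parental and at 101, 93.4 and 83.6 CPM in the E2 libraries (1.71, SE 0.0941, adjusted p = 8.39e-09). Epcam, an epithelial adhesion molecule, rose from 17.04, 17.4 and 19.3 to 70.9, 43.04 and 45.9 CPM, and E2 replicate 1 was the highest. Of 20 tight junction genes 5 were called higher and 2 lower, with a median of 0.43, which was 0.25 without parental replicate 2 and 0.26 without E2 replicate 1. Cldn3 rose from 6.45, 6.01 and 4.09 to 18.9, 18.6 and 12.5 CPM and Cldn9 from 0.0928, 0.230 and 0.189 to 3.59, 3.73 and 2.83 CPM, with no overlap in either. The lower members were Pard3, a polarity scaffold, which fell from 67.4, 57.6 and 63.7 to 33.2, 27.99 and 35.5 CPM, and Marveld3, a membrane protein of these junctions, from 1.95, 2.26 and 3.56 to 1.405, 0.349 and 0.699 CPM, whose call was lost in 4 alternatives (adjusted p up to 0.179). Mal2, a transcytosis protein of the apical membrane, went the other way, from 16.4, 23.95 and 24.5 to 0.312, 0.209 and 0 CPM. Cdh1, E-cadherin, was not called, at 77.8, 53.6 and 73.2 CPM in the parental and 71.1, 41.01 and 43.3 CPM in the E2 libraries (log2 fold change -0.40). Of 13 tested mesenchymal genes 2 were called higher (1 when parental replicate 1 or 2, or E2 replicate 3, or the replicate 1 libraries of both were left out) and 2 lower (1 when parental replicate 1, E2 replicate 2, or the replicate 1 libraries of both were left out): Snai2, a repressor of epithelial genes, rose from 0.186, 0 and 0.252 to 1.61, 1.43 and 1.03 CPM, and Zeb2, another such repressor, fell from 49.4, 58.4 and 63.7 to 18.5, 39.5 and 38.8 CPM. The 11 upward epithelial calls were 7 without parental replicate 2 and 6 without E2 replicate 1 and parental replicate 1 together, and the 2 downward calls were 4 without E2 replicate 1 and 1 when parental replicate 3, or E2 replicate 2 or 3, was left out. The epithelial median was 0.18 without parental replicate 2 and 0.21 without E2 replicate 1.

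Desmosome and hemidesmosome genes had 10 of 20 tested members called higher and 1 lower, with a median of 0.65. Pkp1 and Pkp3, plakophilins that tie desmosomes to keratin, rose from 0.325, 0.574 and 0.346 to 2.81, 3.07 and 2.64 CPM and from 14.3, 20.4 and 14.2 to 40.7, 29.3 and 33.4 CPM. Perp, a desmosomal membrane protein and target of p53, rose from 57.6, 103 and 78.3 to 162, 207 and 157 CPM. Of laminin-332, the anchor of hemidesmosomes, 2 chains were called: Lamb3 rose from 14.9, 14.5 and 16.8 to 35.3, 39.2 and 38.9 CPM and Lama3 from 7.71, 10.1 and 8.82 to 31.4, 18.3 and 18.6 CPM. Lama3 lost its call without E2 replicate 1 and parental replicate 1 together (adjusted p = 0.0670). Dsc2, a desmosomal cadherin, fell from 7.29, 5.17 and 5.48 to 4.58, 2.09 and 2.61 CPM, and its call was lost in 4 alternatives (adjusted p up to 0.129). The integrin pair that binds this laminin was not called, with Itga6 at -0.13 and Itgb4 at 0.45 on the log2 scale. The 10 upward calls were 6 without parental replicate 2 or 3 or without E2 replicate 1 or 3, and 5 without E2 replicate 1 and parental replicate 1 together.

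**Figure D3:**
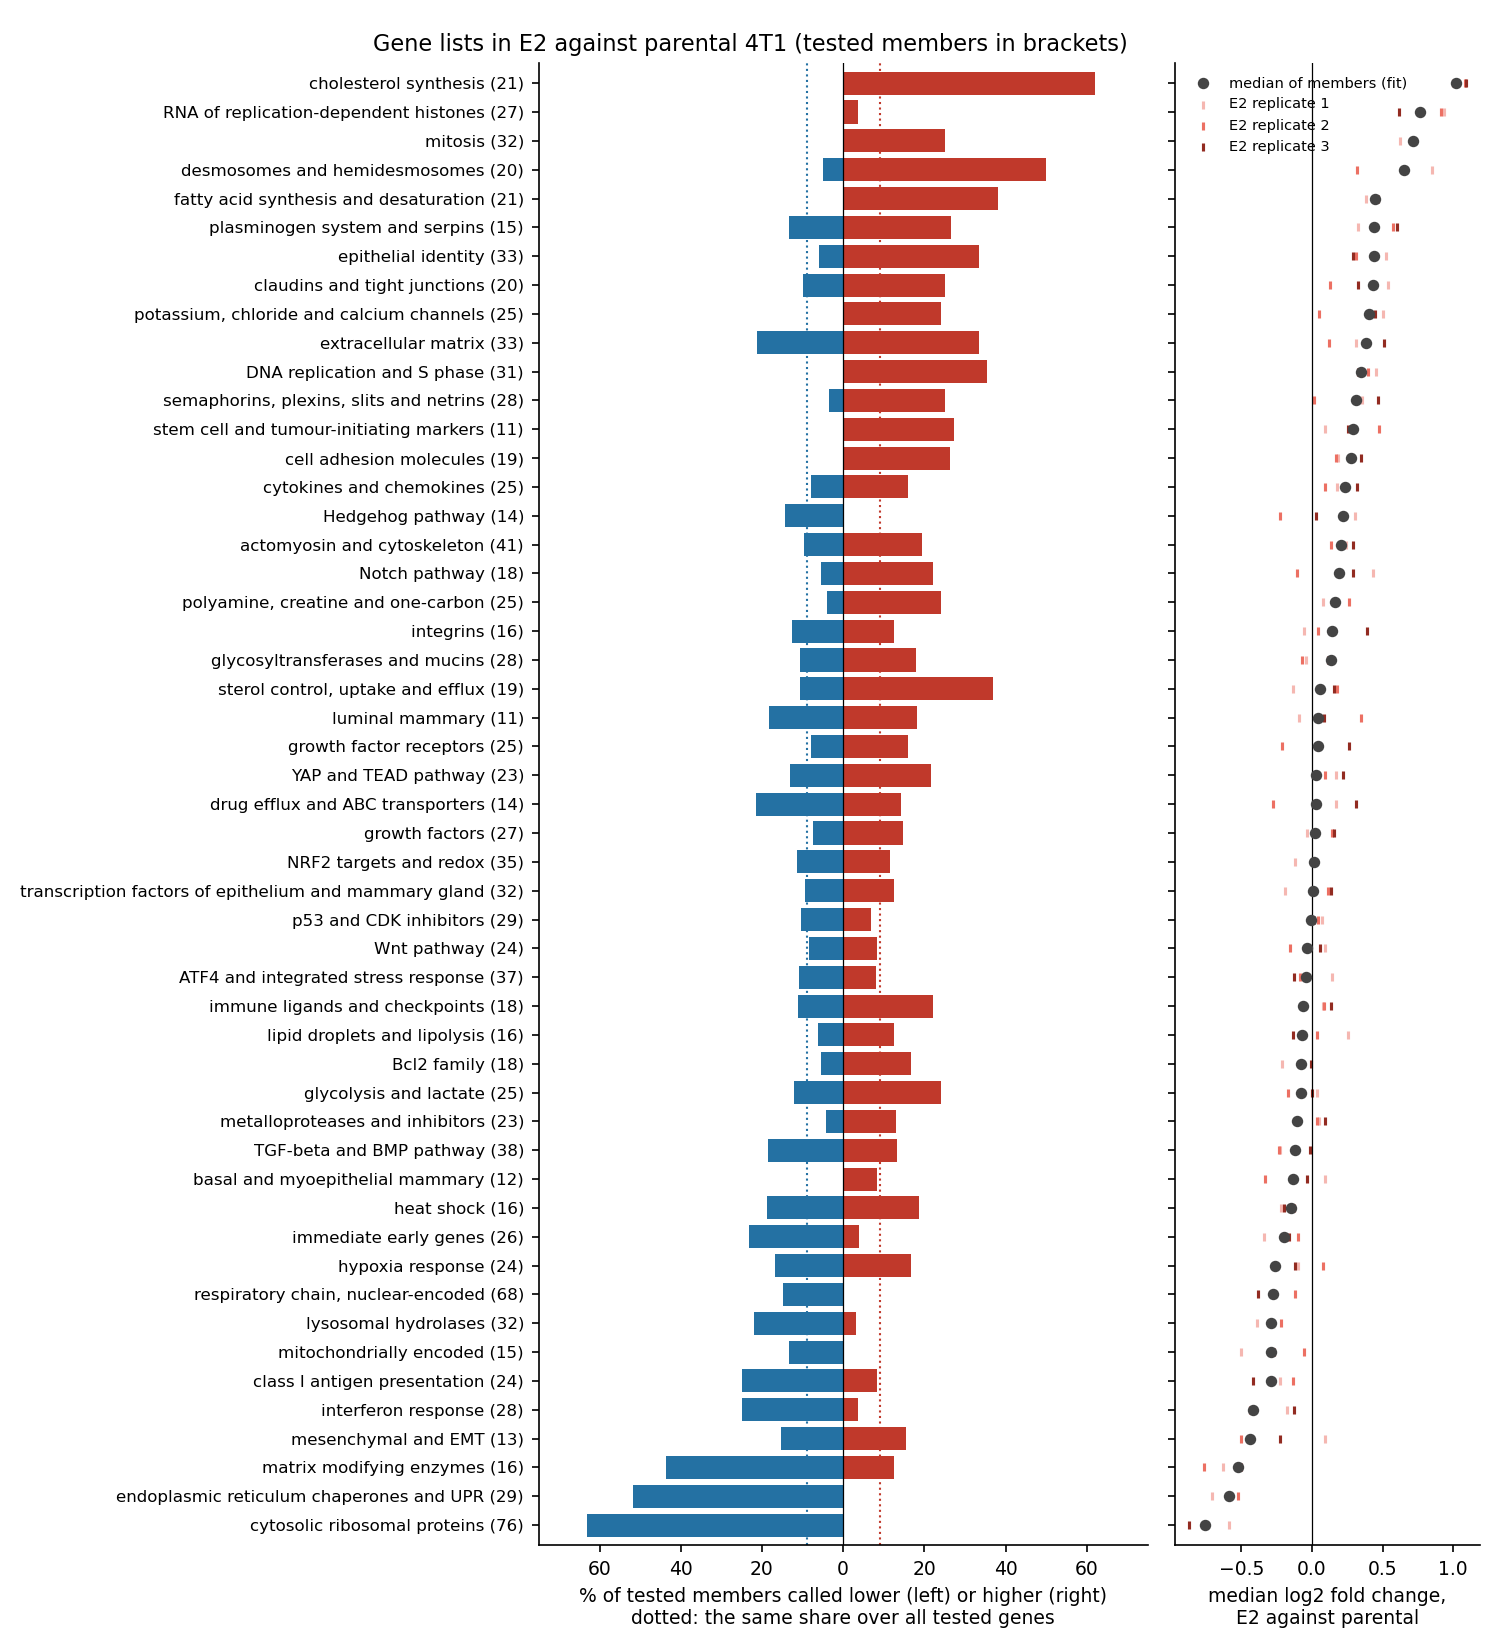
For each gene list with at least 10 tested members, the left panel gives the percent of members called higher (red, right) and lower (blue, left) in E2, with dotted lines at 9.14% and 8.8%, the same shares over all tested genes. The right panel gives the median log2 fold change of the members (point) and of each E2 library against the parental mean (ticks). Cholesterol synthesis stands at the top with a median of 1.02 and cytosolic ribosomal proteins at the bottom with -0.76.

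Extracellular matrix genes were called in both directions. Of 33 tested genes 11 were called higher and 7 lower, with a median of 0.39 (0.25 without E2 replicate 3). Beside Thbs1 and Postn, Col12a1, a fibril-associated collagen, rose from 3.20, 3.10 and 3.87 to 17.7, 16.2 and 21.7 CPM (2.42, SE 0.158, adjusted p = 6.07e-08). Has2, which synthesizes hyaluronan, rose from 7.33, 14.8 and 12.6 to 41.1, 46.1 and 45.3 CPM. Other collagen genes were called lower: Col5a1 fell from 13.3, 10.6 and 14.9 to 3.12, 4.26 and 4.10 CPM, Col6a1 from 2.60, 2.95 and 2.02 to 0.26, 0.244 and 0.365 CPM, and Col4a1 from 149, 116 and 122 to 73.7, 71.03 and 100.3 CPM (adjusted p = 0.0707 without E2 replicate 1 and parental replicate 1 together). Col4a2, which shares a promoter region with Col4a1, fell by 0.90 on the log2 scale. Spp1, osteopontin, fell from 95.99, 152 and 99.7 to 25.1, 47.4 and 54.1 CPM. Enzymes that modify matrix proteins were lower in 7 of 16 tested and higher in 2, with a median of -0.52. Serpinh1, the collagen chaperone HSP47, fell from 76.9, 58.1 and 65.05 to 39.5, 32.3 and 37.3 CPM, Loxl4, a lysyl oxidase that cross-links collagen, from 80.5, 56.1 and 82.1 to 39.4, 28.8 and 37.1 CPM, and Tgm2, a transglutaminase, from 14.6, 7.92 and 13.5 to 5.57, 4.64 and 3.98 CPM. None of these 3 overlapped. The 2 upward calls were 1 or 0 without parental replicate 2 or E2 replicate 2 or 3.

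The serpins of the plasminogen system diverged. Of 15 tested genes 4 were called higher and 2 lower. Serpinb5, maspin, an epithelial serpin, stood at 0.557, 0.306 and 0.693 CPM in the parental and at 9.05, 9.53 and 7.57 CPM in the E2 libraries. Serpine2, which inhibits thrombin and plasminogen activators, fell from 8.68, 9.83 and 4.66 to 0.416, 0.384 and 0.273 CPM (-4.21, SE 0.364). The proteases themselves were not called: Plau, urokinase, had a log2 fold change of 0.38 and Plat of -0.52. Of lysosomal hydrolase genes 7 of 32 were called lower and 1 higher (0 higher when parental replicate 1 or 3, or E2 replicate 2 or 3, was left out), with a median of -0.29. Hexa, a hexosaminidase subunit, fell from 5.94, 4.97 and 4.47 to 0, 0.0698 and 0.304 CPM. Ctsb, cathepsin B, which lies on chromosome 14, fell from 90.8, 92.9 and 73.96 to 19.5, 30.6 and 33.8 CPM. Asah1, acid ceramidase, fell from 59.5, 58.1 and 56.8 to 23.7, 40.6 and 30.9 CPM.

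Signalling genes were called in both directions. The Notch ligands Dll1 and Jag1 rose from 1.76, 3.52 and 3.87 to 11.7, 15.5 and 19.8 CPM and from 57.3, 42.9 and 79.1 to 134, 132 and 124 CPM, and the target Hes1 from 2.74, 3.06 and 4.47 to 8.22, 9.08 and 8.20 CPM, while the receptors Notch1 (0.58) and Notch2 (0.14) were not called. In all, 4 of 18 tested Notch genes were called higher and 1 lower. In the TGF-beta and BMP list 5 of 38 were higher and 7 lower, with a median of -0.12 (-0.31 without parental replicate 2, -0.29 without E2 replicate 3, -0.23 without E2 replicate 1 and -0.20 without parental replicate 1). A ligand chain and an antagonist were among the higher genes. Inhba, the activin A chain, rose from 3.76, 3.79 and 5.98 to 9.47, 11.9 and 14.8 CPM. Fst, follistatin, which binds activin, rose from 0.186, 0.497 and 0.441 to 2.65, 4.57 and 3.86 CPM. Id1 and Id3, neither ligands nor antagonists, were called higher as well, each call lost in 4 alternatives (adjusted p up to 0.143 and 0.231). A receptor and a mediator were among the lower genes. Eng, endoglin, fell from 22, 16.3 and 19.1 to 8.90, 7.05 and 5.65 CPM. Smad3 fell from 71.4, 72.7 and 73.8 to 54.7, 48.97 and 59.5 CPM, with its call lost in 4 alternatives (adjusted p up to 0.0976). The 5 upward calls were 3 when parental replicate 1 or 3, or E2 replicate 3, or the replicate 1 libraries of both were left out, and the 7 downward calls were 4 without parental replicate 3, without E2 replicate 2 or in a fit of the 6 libraries alone. Of semaphorins, plexins, slits and netrins 7 of 28 were called higher and 1 lower (4 higher and 2 lower without E2 replicate 3, and 0 lower without parental replicate 2). Sema5a rose from 6.96, 8.84 and 8.69 to 18.6, 24.5 and 23.7 CPM beside its relative Sema3d and the coreceptor Nrp1. Met, the receptor of hepatocyte growth factor, rose from 103, 143 and 162 to 270.4, 293 and 325 CPM, Wnt7a, a Wnt ligand, from 13, 10.9 and 15.99 to 35.2, 32.3 and 35.5 CPM, and Ccn2, a target of YAP, from 14.1, 16.4 and 23.1 to 85.1, 84.6 and 62.5 CPM. Gab1, an adaptor of receptor tyrosine kinases, fell from 10.9, 11.02 and 8.91 to 1.82, 1.61 and 1.73 CPM. Each of these 4 genes was separate in all 6 libraries.

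Interferon response and antigen presentation genes held more calls downward than upward. In the interferon list 7 of 28 tested genes were called lower and 1 higher, with a median of -0.41 (-0.17 without parental replicate 1 and -0.63 without parental replicate 3). Oasl1, an oligoadenylate synthetase-like protein, stood at 6.82, 6.66 and 5.79 CPM in the parental and 0.937, 3.18 and 1.49 CPM in the E2 libraries. Rsad2, viperin, fell from 2.83, 2.33 and 3.31 to 0.468, 0 and 0.122 CPM. The 1 higher gene, Gbp2, an interferon-inducible GTPase, rose from 7.24, 4.02 and 3.37 to 10.51, 10.96 and 10.6 CPM, and its call was lost without parental replicate 2 or 3. Without parental replicate 1, alone or together with E2 replicate 1, 2 interferon genes were called higher. In the class I list 6 of 24 were lower and 2 higher. Of the lower ones, Calr and Canx were also counted among the chaperones above. Tap1 had the largest called fall, and its call was lost in 5 alternatives (adjusted p up to 0.117). Without parental replicate 1, alone or together with E2 replicate 1, 3 class I genes were lower. The higher count was 1 when any one parental library, E2 replicate 1 or 2, or the replicate 1 libraries of both were left out. H2-D1, a class I heavy chain, fell from 65.03, 48.1 and 44.3 to 36.5, 30.3 and 29.3 CPM, where reads shared with other H2 genes leave the value uncertain, and Tapbp, tapasin, which loads peptide, rose from 44.9, 51.7 and 49.997 to 85.5, 118 and 105 CPM. Among ligands of immune cells, Ulbp1, which binds NKG2D in the mouse, rose from 14.9, 17.98 and 18.9 to 42.5, 48.8 and 52.96 CPM.

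Among genes of growth and energy use, those of the ribosome held the most calls. Of 76 tested cytosolic ribosomal protein genes 48 were called lower and 0 higher, with a median of -0.76. Rpl4 fell from 533, 445 and 501 to 231, 212 and 205 CPM, Rps16 from 27.9, 23.3 and 23.3 to 11.03, 11.4 and 9.84 CPM and Rpl35 from 26.6, 23.1 and 23.6 to 10.9, 10.7 and 10.3 CPM. The 6 libraries were separate in each of the 3, and 46 of the 48 lie outside chromosome 14. Ribosomal protein genes have many processed copies in the genome, so reads could be shared. Mitochondrially encoded genes, at times read as a sign of RNA quality, had 2 of 15 called lower (1 without parental replicate 2) and 0 higher, with a median of -0.29 (-0.44 without parental replicate 1). Replication-dependent histone genes had 1 of 27 called higher (0 without parental replicate 2 or without E2 replicate 2, 5 with no filter on low counts) with a median of 0.77. Their part in the ribosomal result was not tested. Of 68 nuclear-encoded respiratory chain genes 10 were called lower and 0 higher, with a median of -0.27. Ndufb9, of the first complex, fell from 34.9, 51.4 and 39.4 to 22.2, 22.97 and 20.9 CPM, and Cox4i1, of cytochrome oxidase, from 45.6, 47.7 and 37.02 to 29.2, 26.1 and 25.8 CPM. These 10 calls were 5 or 6 when parental replicate 1, or E2 replicate 2 or 3, was left out, and 5 without the replicate 1 libraries of both or in a fit of the 6 libraries alone. S phase genes had 11 of 31 called higher (7 without E2 replicate 1 and parental replicate 1 together) and 0 lower, with a median of 0.35: Rrm2, of ribonucleotide reductase, rose from 17.9, 13.2 and 16.8 to 32.7, 33.9 and 34.1 CPM and Uhrf1, which maintains DNA methylation, from 24.9, 16.8 and 19.05 to 72.9, 36.4 and 46.3 CPM. Mitosis genes had 8 of 32 called higher and 0 lower, with a median of 0.71 and every member above 0: Bub1, a checkpoint kinase, rose from 17.7, 26.98 and 34.3 to 52.7, 76.1 and 70.3 CPM and Ccna2, cyclin A2, from 33.4, 48.3 and 49.6 to 84.7, 105 and 102 CPM. The mitosis count was 4 without parental replicate 1 or E2 replicate 3, 5 without parental replicate 2 or E2 replicate 1 or 2, and 2 without E2 replicate 1 and parental replicate 1 together. It was 22 with no filter on low counts and 18 in a fit of the 6 libraries alone. In glycolysis 6 of 25 were called higher and 3 lower (0 lower when parental replicate 1 or 2, E2 replicate 2, or the replicate 1 libraries of both were left out, and 1 without parental replicate 3): Tpi1, triosephosphate isomerase, rose from 47.1, 43.2 and 47.5 to 83.7, 114 and 113 CPM and Ldha, lactate dehydrogenase, from 214, 225 and 241 to 319.7, 469.5 and 398 CPM.

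By position, genes on chromosome 14 were lower as a block. Of 413 tested there, 185 were called lower (44.8%) and 0 higher, against 934 lower (7.59%) and 1162 higher (9.45%) of 12299 elsewhere. The median log2 fold change on chromosome 14 was -0.75, that is 59.5% of the parental level, and 363 of the 413 genes (87.9%) had a value below 0. Relative to the parental mean, the median of the chromosome was -0.797, -0.708 and -0.717 in the E2 libraries and -0.0701, 0.0461 and 0.0466 in the parental ones. The populations were separate, with an exact two-sided permutation p of 0.1, the smallest that 3 against 3 libraries allow. The chromosome was picked for its low median in these same libraries, so this p describes the separation and is no independent test. Windows of 10 Mb with the lowest medians were all on this chromosome: from 100 to 110 Mb the median was -0.94, from 30 to 40 Mb -0.89 and from 120 to 130 Mb -0.83. Tpt1, a translationally controlled tumour protein (identifier 22070, chromosome 14, 75845256 to 75848303 in GRCm38), fell from 104, 111 and 96.3 to 34.3, 35.9 and 32.5 CPM, Gnl3, nucleostemin (identifier 30877, chromosome 14, 31012433 to 31019131 in GRCm38), from 106, 100.1 and 114 to 32.2, 44.05 and 39.4 CPM, and Rps24, a ribosomal protein, from 148, 178 and 151 to 50.6, 58.05 and 53.4 CPM. Gene copy number was not measured in these libraries, so fewer copies and lower transcription cannot be told apart. Bulk RNA likewise does not separate fewer cells with a transcript from less transcript per cell.

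The same chromosome held lower values in the other clones too. Its median relative to the parental mean lay between -0.50 and -0.40 in the 3 E1 libraries, between -0.36 and -0.29 in A, and between -0.36 and -0.33 in M, all above the E2 libraries. In direct comparisons the median of E2 was -0.26 against E1, -0.37 against A and -0.43 against M. Against A 102 chromosome 14 genes were called lower in E2 and 7 higher, beside 11.4% lower and 11% higher of all tested genes. Against M the counts were 44 and 0, beside 1.93% and 1.57%. In each comparison the exact two-sided permutation p of the chromosome's median was 0.1, the smallest possible, and all share the 3 E2 libraries. The chromosome was picked for its low median in those libraries, so these p-values are no independent tests either. The highest windows were on chromosome X from 90 to 100 Mb, with a median of 0.71 and 9 of 20 genes called higher, chromosome 13 from 20 to 30 Mb, a region of histone genes, with 0.60 but only 4 of 75 called higher, and chromosome X from 140 to 150 Mb, with 0.49 and 6 of 15. On the whole of chromosome X 71 of 375 genes were called higher and 9 lower (median 0.30), and on chromosome 8 116 of 673 were lower and 22 higher (median -0.25).

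**Figure D4:**
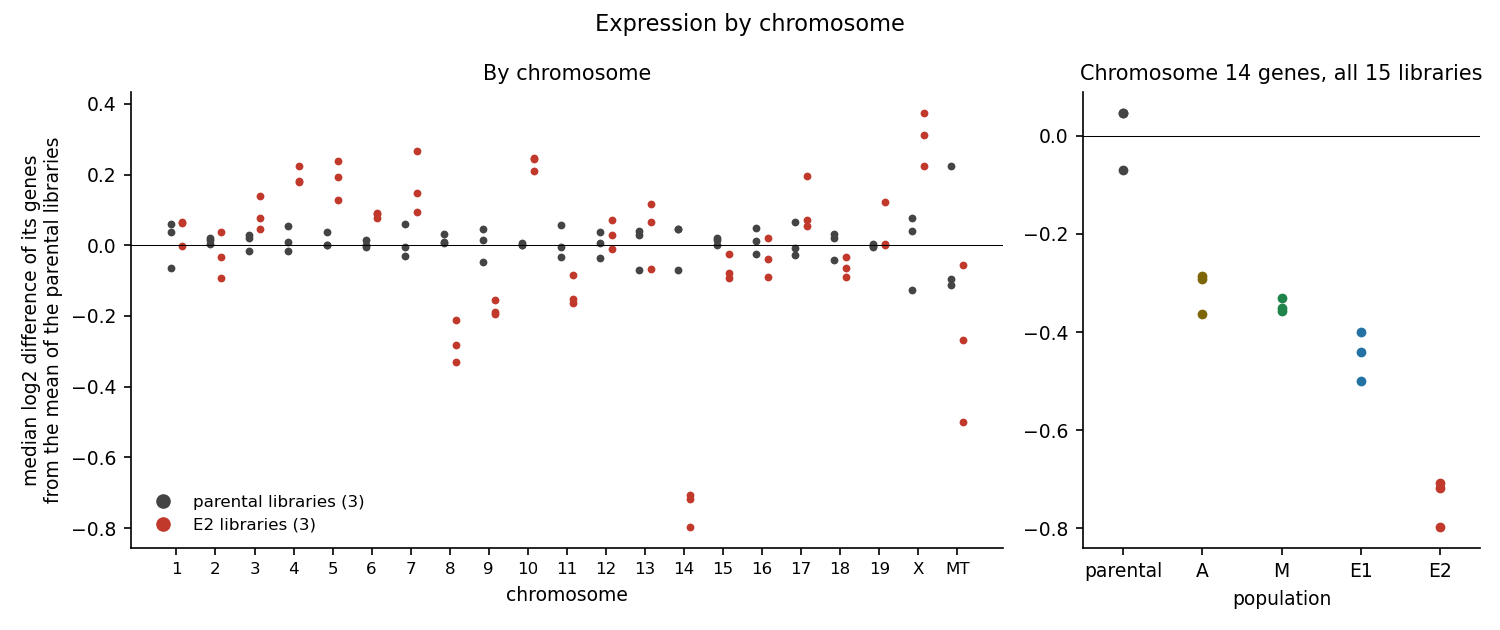
Left, the median log2 difference of each chromosome's tested genes from the mean of the parental libraries, for each of the 3 parental (grey) and 3 E2 (red) libraries. Right, the same median for chromosome 14 in all 15 libraries by population. The E2 libraries lie at -0.797 to -0.708 on chromosome 14, below every library of the other 4 populations.

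E1 was the population with the fewest genes called against E2, where A had 2849 (22.4%) and M 445 (3.5%). Of 12712 genes 30 (0.236%) were called in the direct comparison with E1, 22 higher in E2 (0.173%) and 8 lower (0.0629%), and 15 of the 30 were also called against the parental population in the same direction. The cholesterol synthesis, chaperone, ribosomal protein, epithelial and desmosome lists each had 0 members called against E1. Their median log2 fold changes of E2 against E1 were 0.09, -0.04, -0.14, -0.10 and -0.01, in that order. The extracellular matrix list had 1 member called higher against E1 and the interferon list 1 lower. Postn was at 1.66, 0.743 and 1.23 CPM in E1 against the E2 values given above, with a log2 fold change of 3.13 (SE 0.367, adjusted p = 0.00451). Gpc4, glypican 4, a heparan sulfate proteoglycan on chromosome X, was at 2.78, 1.39 and 1.07 CPM in E1, 8.33, 10.3 and 12.7 CPM in E2 and 15.2, 11.5 and 12.8 CPM in the parental libraries. The E2 libraries lay near the parental ones and clear of E1, with a log2 fold change of 2.52 against E1 (adjusted p = 5.47e-06) and -0.33 against the parental population, where it was not called. Trib2, a pseudokinase, was clear of E1 as well and overlapped the parental libraries, with 2, 2.69 and 2.55 CPM in E1, 5.98, 7.89 and 7.14 CPM in E2 and 4.32, 8.57 and 4.12 CPM in the parental libraries (adjusted p = 0.0025 against E1). Marcks, a membrane-bound substrate of protein kinase C, was at 27.2, 38.6 and 35.9 CPM in E1, 54.2, 106 and 84.7 CPM in E2 and 34.7, 58.9 and 45.1 CPM in the parental libraries. It was called higher against E1 (adjusted p = 0.0052) and against the parental population (0.82, adjusted p = 0.00661), and the second call was lost without E2 replicate 2 (adjusted p = 0.0512).

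Of the 8 genes lower in E2 than in E1, 5 lie on chromosome 14: Esd, Fermt2, Slc39a14, Eaf1 and Ipo5. Fermt2, kindlin-2, which activates integrins, stepped down from 32.3, 32.4 and 33.1 CPM in the parental to 20.03, 22.6 and 20.3 CPM in the E1 and 10.2, 11.3 and 11.7 CPM in the E2 libraries (-0.91 against E1, adjusted p = 0.00883), and the call was lost without E1 replicate 2 (adjusted p = 0.0502). Slc39a14, a zinc and manganese transporter, showed 65.3, 59.1 and 71.8, then 48.05, 56.02 and 61.3, then 24.7, 28.7 and 36.4 CPM in the same order of populations. Klf9, a transcription factor induced by glucocorticoids, on chromosome 19, was at 42.1, 31.4 and 37.2 CPM in the parental, 18.8, 17.6 and 18.3 CPM in the E1 and 11.1, 8.80 and 9.54 CPM in the E2 libraries. In each of these 3 genes no E2 library reached an E1 library, as the rule for naming them required. Several calls against E1 did not last when single libraries were left out or other settings used: that of Slc39a14 was lost in 4 alternatives (adjusted p up to 0.111), that of Klf9 in 5 (up to 0.108), those of Eaf1 and Esd in 6 (up to 0.183 and 0.267) and that of Ipo5 in 7 (up to 0.199). Bcl2l15, a member of the Bcl2 family, was higher in E2 than in the parental libraries (2.22) and lower than in E1 (-1.95), with the second call lost in 7 alternatives (adjusted p up to 0.228).

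**Figure D5:**
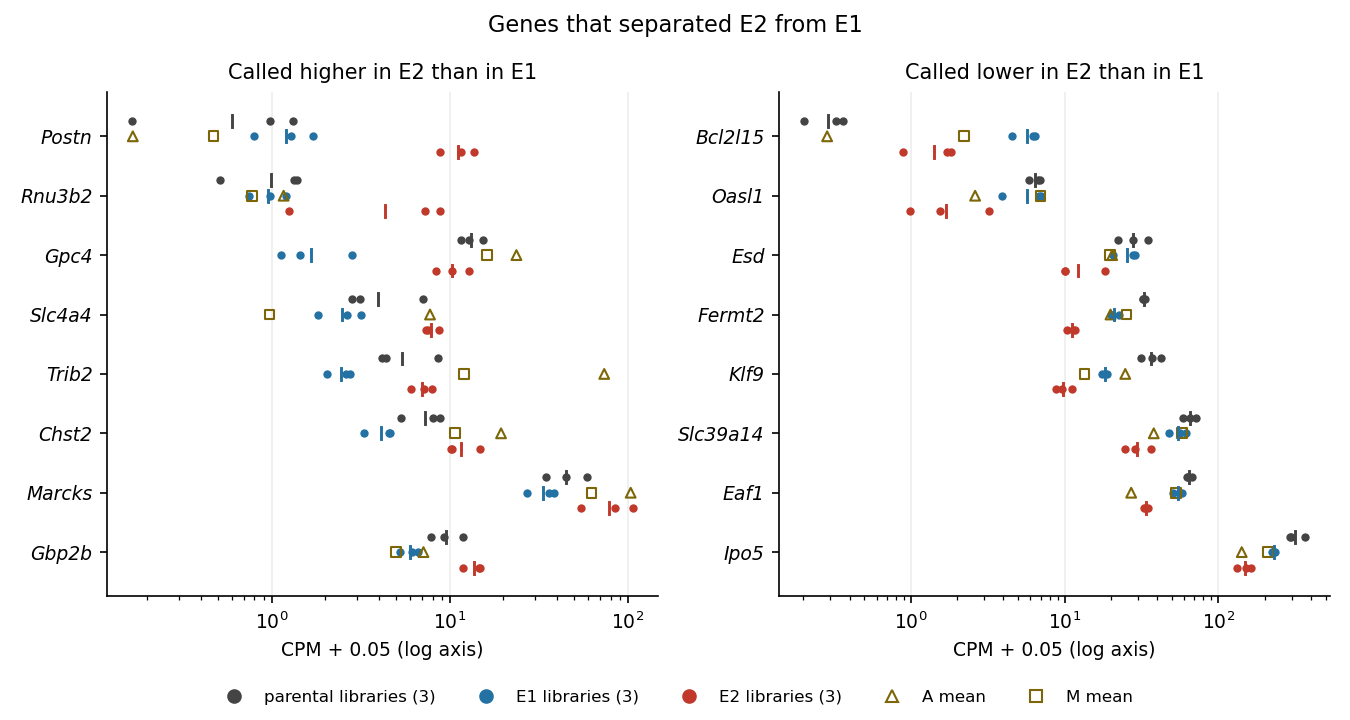
Expression, as CPM plus 0.05 on a log axis, of the 8 genes with the largest rise (left) and the 8 with the largest fall (right) in E2 against E1, in the 3 libraries each of the parental (grey), E1 (blue) and E2 (red) populations, with the means of A (triangle) and M (square). The E2 libraries of Postn lie above every other value shown, and those of Gpc4 lie near the parental ones.

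Against each of the other 4 populations at 2-fold or more, 2 genes (0.0157%) set E2 apart, Postn and Rnu3b2, both higher, and 0 were lower. Postn had a mean of 0.116 CPM in A and 0.422 CPM in M, with a log2 fold change of 5.93 against A and 4.49 against M. Rnu3b2 encodes a copy of the U3 small nucleolar RNA and was at 0.464, 1.34 and 1.29 CPM in the parental and 1.20, 8.80 and 7.17 CPM in the E2 libraries, where replicate 1 lay within the parental range. It has near-identical copies, so its value is uncertain. The count was 1 without E1 replicate 2 or 3, without E2 replicate 3 or without A replicate 2.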

How the data were processed

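RNA sequencing gave 15 libraries, 3 each of 5 populations. Raw counts per gene were deposited by the authors, who per the submitters' processing notes used HISAT2 and featureCounts on GRCm38 (mm10); versions and the strand setting are not given in the sources used here, so overlapping antisense genes cannot be told apart. The deposited normalized tables were not used. The labels call the libraries biological replicates without naming separate cultures, so p-values measure the spread between these libraries.

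Of 27179 identifiers, 25275 were named by RefSeq (GRCm38.p6) and 18 through GENCODE, and 1886 stayed unnamed. Counts were fitted with edgeR 4.0.16 (R 4.3.3, robust quasi-likelihood, TMM, filterByExpr with a minimum count of 10 and a total of 15, prior count 2), with all 15 libraries and population as the only term, and p-values were Benjamini-Hochberg adjusted. The fit was also run on simulated counts with known changes. CPM use TMM-scaled library sizes. Bounds and intervals cover counting error only. DESeq2 1.42.0, other size factors and filters, a replicate block, the 6 libraries alone and leaving out libraries were alternatives.

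Named genes were the 15 largest called changes in each direction with separate replicates and at least 5 CPM, the 6 largest above 100 CPM, the 8 largest against E1, and up to 6 called members of each list by size, with key members that were not called. Srebf1, Srebf2, Hyou1, Pdia6, Pkp3, Dsc2, Col4a1, Col4a2, Spp1, Smad3 and Gbp2 were added after their values were seen. Members and lists were chosen with earlier results of these data known. Some results are not reported here.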

Additional observations from a re-analysis of the deposited data

Results flagged for a closer look

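The direct test of E2 against E1 (edgeR's quasi-likelihood test, adjusted p under 0.05) marked 16 named genes as changed by a different amount in these clones relative to the shared parental population, and each is given as its log2 fold change of E2 against E1. Of the higher genes Postn stood at 3.13, Gpc4 at 2.52, Trib2 at 1.52, Chst2, a sulfotransferase of glycans, at 1.49 and Marcks at 1.27, and these 5 kept their call in every alternative run. Rnu3b2 stood at 2.55, Slc4a4, a bicarbonate cotransporter, at 1.62 and Gbp2b, an interferon-inducible GTPase, at 1.19, and each of these 3 lost its call in at least 1 alternative. Of the lower genes Bcl2l15 stood at -1.95 and Oasl1 at -1.59. The chromosome 14 genes among them stood at -1.0 (Esd), -0.91 (Fermt2), -0.88 (Slc39a14), -0.70 (Eaf1) and -0.62 (Ipo5), and Klf9 on chromosome 19 at -0.89. All 8 lower genes lost their call in at least 1 alternative. The rule for naming these 16 genes required the 3 E2 libraries to lie clear of the 3 E1 libraries, so that separation is no further support.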

How the results depend on the processing

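Scaling by other size factors, a stricter filter on low counts, DESeq2 and a fit of the 6 libraries alone left the counts of E2 against the parental population within 1.5 times of 2281. It was 1451 without E2 replicate 1 and parental replicate 1 together, and 1605 to 2044 with any one of the 6 libraries left out. The 30 genes called against E1 became 128 with no filter, 128 with DESeq2, 68 with the replicate block, 64 without E2 replicate 1 and parental replicate 1 together, and 9 to 38 with one library left out. The 2 genes that set E2 apart became 7 with no filter, 7 with DESeq2 and 1 to 3 with one library left out. Why these counts moved was not tested. Replicate numbers are shared between populations. Same-numbered parental and E2 libraries correlated by 0.213, 0.125 and 0.0602 in their deviations, and differently numbered ones by -0.179 to 0.0598. Each E2 library thus correlated best with the parental library of its own number. The labels state no pairing, and the main fit has no term for the number. Whether the number marks a shared batch was not tested. With the block, 2674 genes were called, 934 of them at 2-fold. Of 305 called comparisons of single genes 177 kept their call in every alternative run and 128 lost it in at least 1. Direction changed only in 4 genes that were not called. With one library left out, Eif2ak3 ranged from -0.325 to 0.0554, Itga6 from -0.303 to 0.0204, Sc5d from -0.0462 to 0.253 and Msmo1 from -0.0282 to 0.240 on the log2 scale, and without E2 replicate 1 and parental replicate 1 together Eif2ak3 was 0.139. Of 52 lists 23 had a median that moved by more than the spread of the E2 libraries in at least 1 alternative. Low counts limit the silent genes.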

Other observations

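Cell adhesion genes outside the groups above had 5 of 19 tested members called higher and 0 lower (3 higher without parental replicate 1). Igsf11, an adhesion molecule of the immunoglobulin family, stood at 0.0928, 0.383 and 0.567 CPM in the parental and at 10.1, 11.9 and 10.2 CPM in the E2 libraries, with a log2 fold change of 4.63 (SE 0.598, adjusted p = 6.56e-08, edgeR's quasi-likelihood test). Igsf9, of the same family, rose from 10.49, 11.1 and 12.1 to 48.9, 27.1 and 31.3 CPM. Among 16 integrin genes 2 were called higher and 2 lower (1 lower when parental replicate 1 or 3, E2 replicate 2, or the replicate 1 libraries of both were left out). Itga7, a laminin-binding subunit, rose from 1.76, 1.91 and 2.52 to 12.1, 10.4 and 10.2 CPM, and Itga8, which pairs with the beta-1 subunit, from 2.97, 5.51 and 3.90 to 9.42, 12.5 and 8.48 CPM. In each of these 4 genes the populations did not overlap, which the naming rule required of Igsf11.

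Hypoxia response genes split, with 4 of 24 called higher and 4 lower (1 or 2 higher when parental replicate 1 or 3, or one of E2 replicates 2 and 3, was left out). The 2 carbonic anhydrases of the list moved apart: Car9 rose from 1.67, 1.07 and 1.35 to 14.2, 8.94 and 7.66 CPM, and Car12 fell from 20.98, 14.1 and 18.9 to 5.78, 3.91 and 4.68 CPM. Ero1a, an oxidase that serves disulfide formation and lies on chromosome 14, fell from 85.2, 94.7 and 95.7 to 28.4, 44.6 and 41.4 CPM. In the redox list 4 of 35 were called higher and 4 lower, which is 22.9% called beside 17.9% of all tested genes. Mgst3, a microsomal glutathione transferase, rose from 0.743, 1.61 and 0.378 to 4.47, 9.21 and 5.99 CPM, and Prdx1, a peroxiredoxin, from 75.3, 89.8 and 72.3 to 108, 163 and 135 CPM. Of transcription factors of epithelium and mammary gland, Sox9 rose from 33.8, 65.1 and 43.9 to 72.1, 129 and 98.5 CPM, while Klf5, on chromosome 14, fell from 34.95, 21.5 and 31.5 to 11.9, 10.9 and 13.3 CPM, and 4 of 32 were called higher and 3 lower (1 or 2 higher when parental replicate 1, E2 replicate 2 or 3, or the replicate 1 libraries of both were left out, and 1 lower without parental replicate 1). That is 21.9% of this list called, beside 17.9% of all tested genes.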
